A study of Rattus norvegicus with 8 samples.

Results

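The Bcl2 family apoptosis regulators were examined as 10 genes among the 17337 genes of a striatal mRNA count table: Bcl2, Bcl2l1, Bcl2l2, Mcl1, Bax, Bak1, Bad, Bid, Bcl2l11 and Bbc3. They were chosen by name and not by a threshold on their values, with earlier results of these data known. All 10 passed the filter on low counts that left 12014 genes for testing. The striatum came from 8 male Sprague-Dawley rats of wild-type genotype, 4 in the METH group and 4 in the saline group. The METH rats took methamphetamine by lever press through a jugular catheter (0.05 mg/kg in each infusion) in daily sessions of 2 h on 16 days. The saline group pressed for saline in identical sessions. Food training, catheter surgery, and ketamine and xylazine anesthesia before the brain was taken were common to both groups. More METH rats than saline rats entered the schedule, and 4 of each with stable lever pressing at its end were chosen. The age of the rats and the time from the last infusion to sampling are not given in the sources used here.

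The family decides whether a cell opens the outer membrane of its mitochondria, the step that lets cytochrome c out and starts the caspases. Guardian proteins (the products of Bcl2, Bcl2l1, Bcl2l2 and Mcl1) hold the effectors Bax and Bak1 in check, and BH3-only proteins (here Bad, Bid, Bcl2l11 and Bbc3) neutralize the guardians or activate the effectors when a cell is under stress. Neurons of the adult brain live for the life of the animal, and METH given at high doses is known for its toxicity to dopamine terminals in the striatum. Much of the control in this family is on the proteins and on splicing, and counts per gene do not separate isoforms such as the long and short products of Bcl2l1 and Mcl1.

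The total count per rat lay between 18135939 and 21211920. Thus 3 counts, the least taken as detected, stood for 0.141 to 0.165 CPM before TMM scaling. The levels of genes are given in CPM relative to the TMM-scaled library size. All 9 markers of striatal projection neurons were read in every rat. METH rat 3 stood apart on the first principal component, which carried 26.4% of the variance, at 39.5 against -24.6 to 5.29 in the other 7 rats. Its scaling factor was the lowest, at 0.956. This rat was the highest of the 8 for 4 members (Bcl2l1, Bax, Bak1 and Bad). Saline rat 3 lay at the other end of the component, at -24.6, and was the lowest of the 8 for the same 4 members and for Bcl2l2. These 4 members are therefore given with all rats, without METH rat 3 and without saline rat 3. In bulk tissue, fewer cells of a type and less RNA per cell cannot be told apart.

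None of the 10 members was called different between METH and saline rats. A call required an FDR under 0.05, and a mean above 1 on the log2 CPM scale, in the quasi-likelihood test of edgeR. By this rule 0 members were called higher and 0 lower, where 0.516% of all genes tested were called (0.449% higher and 0.0666% lower). At an unadjusted p below 0.05 in the same test 0 members differed, where 11.1% of all genes did (6.26% higher and 4.88% lower), and DESeq2, limma-voom and the other tests of edgeR also gave 0 members at both thresholds. In 0 members did the 4 METH rats lie wholly above or below the 4 saline rats, where 6.39% of all genes tested did (3.75% above and 2.65% below). The fitted log2 fold changes, METH minus saline, ran from -0.35 (Bbc3) to 0.31 (Bid), 7 above and 3 below zero. The median of their sizes was 0.089 on the log2 scale, where it was 0.12 over all genes tested. All 10 of the 95% confidence intervals included no change.

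**Figure D1:**
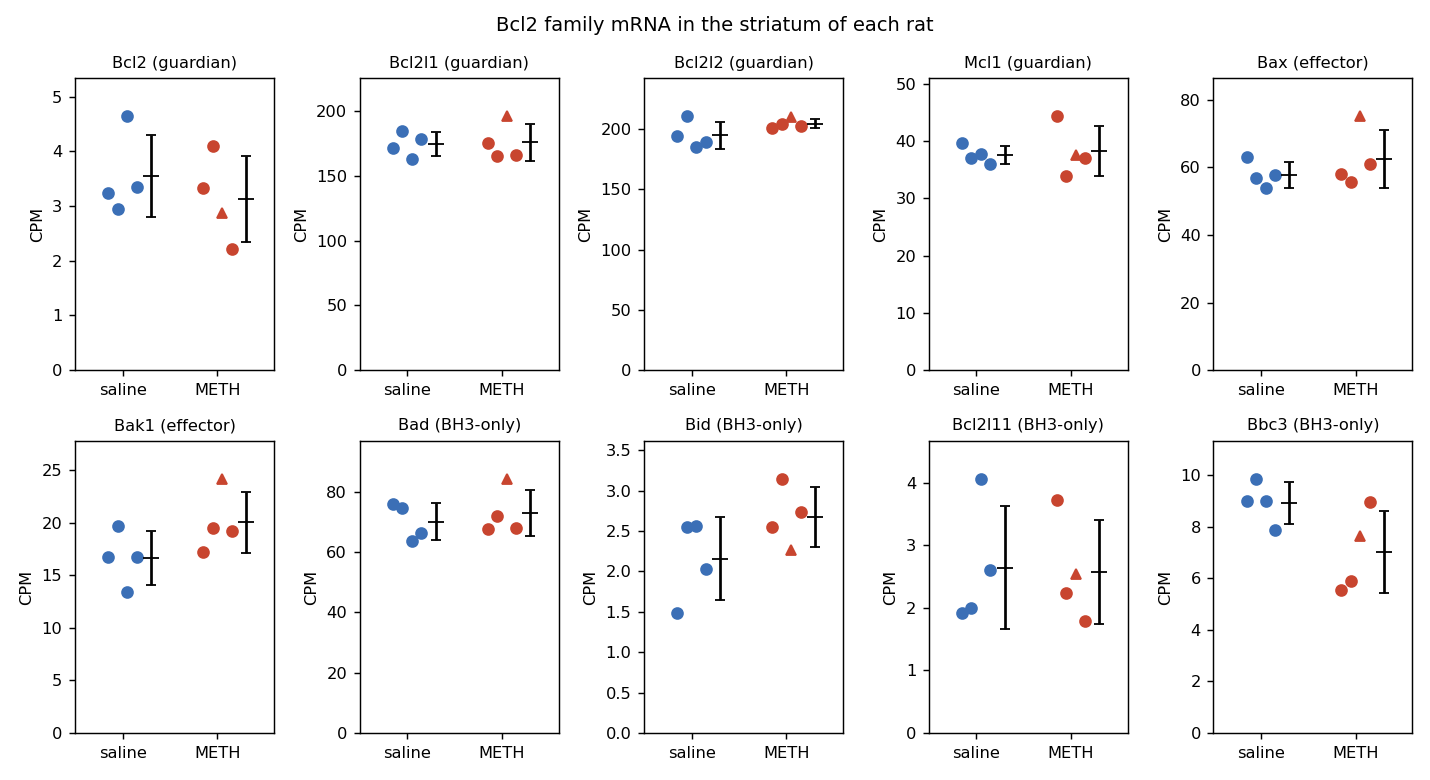
Levels of the 10 Bcl2 family genes in CPM (vertical axes, each from zero) in every saline rat (blue) and METH rat (red, METH rat 3 as a triangle). Bars give the mean and SD of 4 rats. In every panel the 2 groups overlap, and METH rat 3 is the highest rat for Bcl2l1, Bax, Bak1 and Bad.

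Among the guardians, Bcl2l1 encodes Bcl-xL, the main guardian of mature neurons. It stood at 171, 184, 163 and 179 CPM in saline rats 1 to 4, and at 176, 165, 196 and 166 CPM in METH rats 1 to 4. Apart from METH rat 3, the METH rats lay inside the saline range. The means were 174 ± 9.23 CPM in the saline group and 176 ± 14.2 CPM in the METH group (SD, n = 4 each). The log2 fold change was 0.011 (SE 0.078, FDR = 0.974 by the edgeR quasi-likelihood test). Its 95% interval in fold terms, 0.897 to 1.13 times the saline level, was among the narrowest of the family. Without METH rat 3 the log2 fold change was -0.044, and without saline rat 3, the lowest rat, it was -0.020.

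Bcl2l2 encodes Bcl-w, a guardian found in neurons. Its levels were 195, 211, 185 and 189 CPM in the saline rats, and the METH rats were grouped closely at 201, 205, 209.8 and 203 CPM. Saline rat 2 was the highest of all 8, and the other 3 saline rats lay below every METH rat. The means were 195 ± 11.04 and 205 ± 3.78 CPM (SD, n = 4 each). On the log2 scale the difference was 0.069 (SE 0.069, FDR = 0.728, edgeR quasi-likelihood test), with a fold interval of 0.947 to 1.16. Without saline rat 2 the groups no longer overlapped, yet the difference on the log2 scale was 0.11 and the FDR 0.589 in the same test.

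Mcl1 encodes a guardian whose protein is made and destroyed quickly. Saline rats had 39.6, 37.0, 37.7 and 35.96 CPM, and METH rats had 44.3, 33.9, 37.6 and 37.1 CPM. METH rats 1 and 2 were the highest and the lowest of all 8, with the saline rats between them. The means were 37.6 ± 1.52 and 38.2 ± 4.33 CPM (SD, n = 4 each), and the log2 fold change was 0.026 (SE 0.095, FDR = 0.948, edgeR quasi-likelihood test). The fold interval ran from 0.883 to 1.17. Without METH rat 1 the log2 fold change turned to -0.053.

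Bcl2 itself, the founding guardian, was read few times in this tissue. It had 59, 59, 96 and 71 counts among saline rats, against 68, 86, 51 and 42 counts among METH rats. In CPM these were 3.24, 2.95, 4.64 and 3.36 against 3.33, 4.09, 2.88 and 2.21. Saline rat 3 was the highest and METH rat 4 the lowest, and the other rats were mixed. The group means were 3.545 ± 0.748 and 3.13 ± 0.789 CPM (SD, n = 4 each), with a log2 fold change of -0.18 (SE 0.26, FDR = 0.824, edgeR quasi-likelihood test). The fold interval was wide, from 0.599 to 1.30. The coefficient of variation between rats was 21.1% in the saline group and 25.2% in the METH group, where counting error alone gives 11.8% and 12.7%. The log2 fold change was -0.022 without saline rat 3, -0.044 without METH rat 4 and -0.34 without METH rat 2.

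Both effectors had higher means in METH rats, but neither difference was beyond the spread between rats. Bax, the effector that moves from the cytosol to mitochondria, had 63.1, 56.8, 53.9 and 57.6 CPM among saline rats, against 58.1, 55.6, 75.1 and 60.9 CPM among METH rats. Only METH rat 3 lay above the highest saline rat. The means were 57.9 ± 3.83 and 62.4 ± 8.68 CPM (SD, n = 4 each), and the log2 fold change was 0.11 (SE 0.10, FDR = 0.703, edgeR quasi-likelihood test). It was 0.0097 without METH rat 3 and 0.076 without saline rat 3, the lowest rat, so the difference of the Bax means rested on METH rat 3.

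Bak1, the effector that resides in the mitochondrial membrane, had the second smallest p of the 10 members. The saline rats had 16.7, 19.7, 13.4 and 16.7 CPM and the METH rats had 17.2, 19.5, 24.1 and 19.2 CPM. Every METH rat lay above saline rats 1, 3 and 4, and saline rat 2 lay above METH rats 1, 2 and 4. Means of 16.6 ± 2.58 and 20.01 ± 2.92 CPM (SD, n = 4 each) gave a log2 fold change of 0.27 (SE 0.14, unadjusted p = 0.0788, FDR = 0.486, edgeR quasi-likelihood test). The exact permutation test of log2 CPM over the 70 labelings gave a two-sided p of 0.114, where the smallest p that 4 rats against 4 allow is 0.0286. Leaving out METH rat 3, the highest rat, lowered the log2 fold change of Bak1 to 0.17. Leaving out saline rat 3, the lowest rat, lowered it to 0.18 (unadjusted p = 0.224, FDR = 0.745, edgeR quasi-likelihood test). Leaving out saline rat 2, the highest saline rat, raised it to 0.36 (unadjusted p = 0.0298, FDR = 0.441), and the groups then did not overlap. The unadjusted p was also below the threshold without METH rat 1, at 0.0451 (log2 fold change 0.33, FDR = 0.374).

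The fitted differences of the BH3-only genes had both signs, and none was called. Bbc3 encodes Puma, a strong killer induced by stress pathways, and it had the smallest p of the 10 members. The counts were 164, 197, 186 and 167 among saline rats, against 113, 124, 135 and 170 among METH rats. In CPM, saline rats had 9.001, 9.85, 8.98 and 7.89, and METH rats had 5.53, 5.90, 7.63 and 8.96. METH rats 1, 2 and 3 lay below every saline rat, and METH rat 4 lay inside the saline range. The means were 8.93 ± 0.802 CPM in the saline group and 7.005 ± 1.59 CPM in the METH group (SD, n = 4 each).

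The log2 fold change of Bbc3 was -0.35 (SE 0.18), which is 0.784 times the saline level, with a fold interval from 0.597 to 1.03. Its unadjusted p was 0.0747 and its FDR 0.483 in the edgeR quasi-likelihood test, and 1854 of the 12014 genes ranked at or ahead of it by p. An exact permutation test of log2 CPM gave a two-sided p of 0.0571. Because METH rat 4 alone lay inside the saline range, dropping it had to separate the groups. The log2 fold change was then -0.49 (unadjusted p = 0.0193, FDR = 0.402, edgeR quasi-likelihood test). Dropping METH rat 1 weakened it to -0.25 (unadjusted p = 0.199), and dropping METH rat 2 weakened it to -0.28 (unadjusted p = 0.182), by that test. The values -0.49 and -0.25 were the extremes among the fits that lacked a rat. Bbc3 was therefore lower in 3 of 4 METH rats than in any saline rat, and was not called with or without the fourth.

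Bad encodes a BH3-only protein that growth factor signaling switches off by phosphorylation. The saline rats had 76.0, 74.7, 63.6 and 66.4 CPM, and the METH rats had 67.7, 72.0, 84.2 and 68.1 CPM. METH rat 3 was the highest, and the other METH rats lay within the saline range. From means of 70.2 ± 6.13 and 73.0 ± 7.73 CPM (SD, n = 4 each), the log2 fold change was 0.057 (SE 0.094, FDR = 0.845, edgeR quasi-likelihood test). Without METH rat 3 it was -0.018, and without saline rat 3, the lowest rat, it was 0.011. The fold interval with all rats was 0.904 to 1.20.

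Bid, which links death receptors and caspase 8 to the mitochondria, and Bcl2l11, which encodes Bim, had few counts and wide intervals. Bid had 27, 51, 53 and 43 counts among saline rats, against 52, 66, 40 and 52 counts among METH rats. METH rat 2 was the highest and saline rat 1 the lowest. Its means were 2.16 ± 0.513 and 2.67 ± 0.371 CPM (SD, n = 4 each), a log2 fold change of 0.31 (SE 0.28, FDR = 0.695, edgeR quasi-likelihood test) with a fold interval of 0.818 to 1.87. Without saline rat 1 the log2 fold change of Bid was 0.17. Bcl2l11 had 35, 40, 84 and 55 counts among saline rats, against 76, 47, 45 and 34 counts among METH rats, with the highest rat in the saline group and the lowest in the METH group. Its means were 2.64 ± 0.989 and 2.57 ± 0.824 CPM (SD, n = 4 each), and its log2 fold change was -0.041 (SE 0.33, FDR = 0.977, same test), with a fold interval of 0.597 to 1.58. The coefficient of variation of Bcl2l11 between rats was 37.4% in the saline group and 32.0% in the METH group, against 13.7% and 14.1% from counting error. Its sign changed when saline rat 3 (0.24), METH rat 2 (0.022) or METH rat 4 (0.097) was left out.

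**Figure D2:**
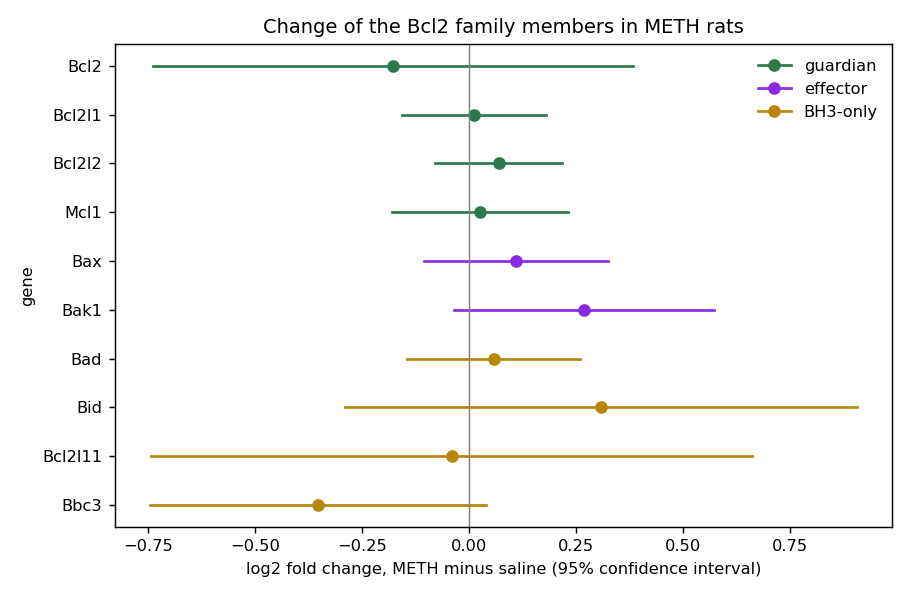
Log2 fold change, METH minus saline, of each of the 10 Bcl2 family genes (points) with its 95% confidence interval (lines), from the edgeR quasi-likelihood fit, colored by role. Every interval includes zero. The intervals are narrow for Bcl2l1, Bcl2l2, Mcl1, Bax and Bad and wide for Bcl2, Bid and Bcl2l11.

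The balance of guardians against effectors was compared within each rat as the log2 ratio of raw counts, which no library scaling can change. Because gene lengths differ, only the change of a ratio between groups can be read and not its level. Bcl2l1 over Bak1 was 3.40 ± 0.158 among saline rats, against 3.14 ± 0.144 in the METH rats (SD of log2 ratios, n = 4 each), with ranges of 3.23 to 3.61 and 3.02 to 3.35 that overlap. The mean ratio of each guardian to Bak1 was lower in METH rats, by between 0.20 (Bcl2l2) and 0.47 (Bcl2) on the log2 scale, and these 4 ratios share the Bak1 counts. Over Bax the differences ran from -0.031 for Bcl2l2 to -0.30 for Bcl2. The step between the Bak1 and the Bax ratio is the same for every guardian by construction, so the 4 guardians do not show it independently. In 0 of these 8 ratios were the groups apart. The ratio of Bbc3 to Bax, chosen after its values were seen, was -2.70 ± 0.167 among saline rats, against -3.17 ± 0.28 in the METH rats, again with overlap. No test was made of these ratios.

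**Figure D3:**
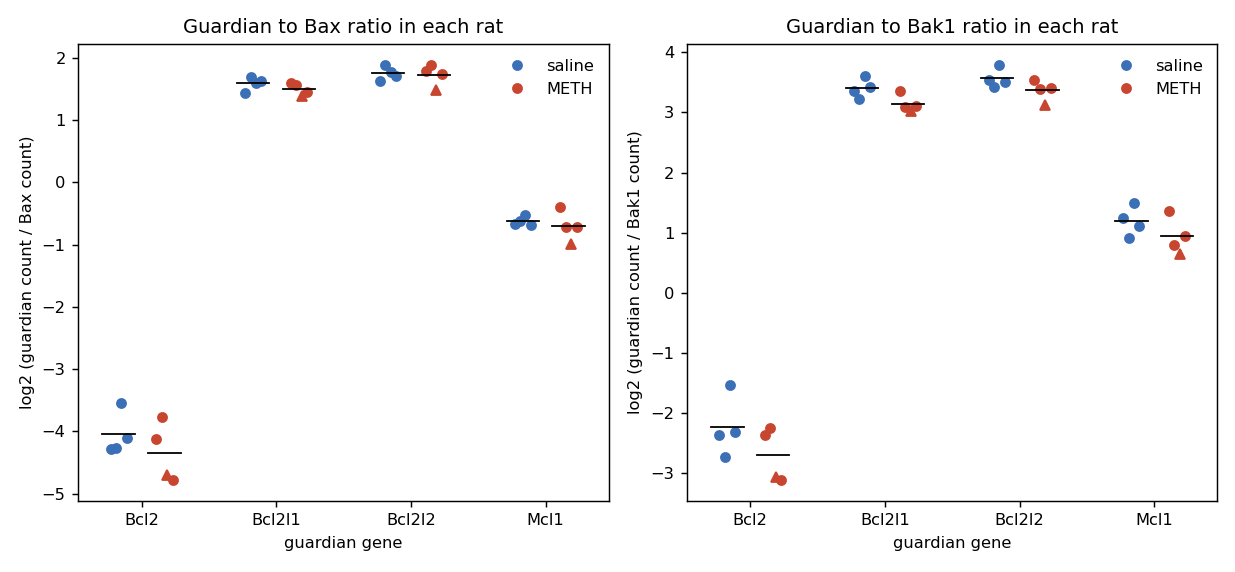
Log2 ratio of the raw count of each guardian gene to that of Bax (left) and Bak1 (right) in each saline rat (blue) and METH rat (red, METH rat 3 as a triangle), with group means as lines. The groups overlap in all 8 ratios, and the METH means over Bak1 lie below the saline means by 0.20 to 0.47.

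The rest of the apoptosis pathway was followed in 8 lists with 111 genes tested, and 1 of them was called, Cdkn1a, which was higher in METH rats. That is 0.901% of the genes of the lists, beside the 0.516% of all genes. At an unadjusted p below 0.05, 11 genes of the lists differed (9.91%, 5 higher and 6 lower), beside 11.1% of all genes tested. The groups did not overlap in 6 genes (5.41%), beside 6.39% of all genes. The median log2 fold change over the 111 genes was -0.028, beside -0.0055 over all genes tested. By each of these counts the lists together were close to the whole table.

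Cdkn1a encodes p21, an inhibitor of cyclin-dependent kinases that stress induces and that is not itself a Bcl2 family protein. Its counts were 162, 196, 231 and 225 among saline rats, against 319, 341, 417 and 392 among METH rats, so that every METH rat lay above every saline rat. The level rose from 10.1 ± 0.992 to 19.0 ± 3.77 CPM (SD, n = 4 each), a log2 fold change of 0.91 (SE 0.15, FDR = 0.0133, edgeR quasi-likelihood test). The call was lost when saline rat 2 was left out, where the log2 fold change was 0.89 (FDR = 0.0636, same test). Of the 14 genes tested in its list, the response to DNA damage and other stress, it was the only one with an unadjusted p below 0.05. The list held 7 genes higher and 7 lower, with a median log2 fold change of -0.011. Apart from Cdkn1a, its log2 fold changes ran from -0.37 (Perp, FDR = 0.767) to 0.22 (Phlda3, FDR = 0.542) in the same test. Ccng1 and Gadd45a, which respond to DNA damage, had 0.0062 (FDR = 0.984) and 0.016 (FDR = 0.971). The cause of the higher level of Cdkn1a was not tested.

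In the list of other Bcl2 family genes, 14 genes were tested and 0 had an unadjusted p below 0.05 in the edgeR quasi-likelihood test, 8 higher and 6 lower. The smallest p was that of Bok, a Bax-like effector, with a log2 fold change of -0.23 (FDR = 0.463) from 36.4 ± 4.44 to 31.1 ± 3.26 CPM. Hrk, a BH3-only gene of neurons, stood at 81.7 ± 7.34 and 84.0 ± 5.31 CPM, a log2 fold change of 0.041 (FDR = 0.887, same test). The highest log2 fold changes of this list, those of Bcl2l15 (0.92) and Bcl2l10 (0.82), came from means of 1.88 CPM or less.

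Downstream of the mitochondria, 0 of 11 genes of the apoptosome and caspase list had an unadjusted p below 0.05 in the edgeR quasi-likelihood test. The initiator Casp9 had a log2 fold change of -0.13 (FDR = 0.625, same test). Apaf1 and Cycs, which build the apoptosome, had log2 fold changes of -0.12 and 0.074 in the same fit. Of the inhibitors of apoptosis and their antagonists, 1 of 11 was past an unadjusted p of 0.05, Xiap, the direct inhibitor of caspases. It stood at 18.1, 20.4, 28.0 and 27.4 CPM among saline rats, against 15.5, 21.1, 10.96 and 20.1 CPM among METH rats, with overlap and with METH rat 3 the lowest. Its log2 fold change was -0.47 (SE 0.20, FDR = 0.401, edgeR quasi-likelihood test), and it was -0.31 without METH rat 3.

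Of the death receptor list, 10 genes were tested and 7 had a log2 fold change below zero. Fadd, the adaptor that recruits caspase 8, was the single gene with an unadjusted p below 0.05, at -0.72 (SE 0.31, FDR = 0.412, edgeR quasi-likelihood test), from 2.71 ± 0.847 to 1.64 ± 0.158 CPM. Tnf and Faslg, the ligands, did not pass the filter on low counts. Tnf had 0 counts in all rats, which allows a level of up to 0.165 CPM before TMM scaling in the least sequenced rat, with counting error alone considered.

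Among the regulators of BH3-only genes and proteins, 5 of 24 (20.8%, beside 11.1% of all genes) had an unadjusted p below 0.05 in the edgeR quasi-likelihood test, 3 higher and 2 lower, and 0 were called. The groups did not overlap in 3 of the 24 (12.5%, beside 6.39% of all genes), Dynll2, Mapk8 and Rps6ka1. Jun, a transcription factor that acts on Bcl2l11 and Bbc3 in stressed neurons, had 72.7, 67.2, 68.4 and 59.6 CPM among saline rats, against 103, 69.1, 91.8 and 84.0 CPM among METH rats. The groups overlapped only through METH rat 2, and the log2 fold change was 0.38 (SE 0.11, FDR = 0.227). Ddit3, which encodes the stress factor Chop, had 0.25 (FDR = 0.419), and Dynll2, a dynein light chain that binds Bmf, had 0.16 (FDR = 0.358). Mapk8, which encodes the kinase Jnk1, had -0.25 (FDR = 0.383), and Rps6ka1, a kinase that phosphorylates Bad, had -0.29 (FDR = 0.358). The log2 fold change of Mapk8 was -0.17 without METH rat 3. Foxo3, a transcription factor for Bcl2l11 and Bbc3, differed by -0.29 on the log2 scale (FDR = 0.505).

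Among 9 genes tested of those that set Mcl1 turnover, 2 had an unadjusted p below 0.05 in the edgeR quasi-likelihood test (22.2%, beside 11.1% of all genes). The groups also did not overlap in 2 of the 9 (22.2%, beside 6.39% of all genes). These were the same pair, Bag3 and Ier3, which pointed in opposite directions, and neither was called. Bag3, a co-chaperone of Hsp70 that stabilizes Mcl1 protein, had 18.0, 19.8, 20.1 and 22.0 CPM among saline rats, against 33.8, 27.8, 43.9 and 25.5 CPM among METH rats, without overlap. Its log2 fold change was 0.71 (SE 0.15, FDR = 0.0643, edgeR quasi-likelihood test). DESeq2 called it (FDR = 0.00196), as did 2 further tests of edgeR, exact (FDR = 0.00202) and likelihood ratio (FDR = 0.00201). These tests called 168 to 186 genes in the whole table, where the quasi-likelihood test called 62. Bag3 was not called by limma-voom (FDR = 0.106). Ier3, an early response gene whose protein binds Mcl1, was at 6.36 ± 1.36 CPM in saline rats and 3.88 ± 0.513 CPM in METH rats, also without overlap, with a log2 fold change of -0.71 (SE 0.21, FDR = 0.222, edgeR quasi-likelihood test). Of 18 mitochondrial outer membrane partners tested, Opa1, which fuses inner membranes and shapes cristae, was the single gene with an unadjusted p below 0.05, at -0.26 (FDR = 0.42, same test), and at -0.16 without saline rat 3. Vdac1 and Vdac2, which encode channels of the outer membrane, had log2 fold changes of -0.013 and 0.045.

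**Figure D4:**
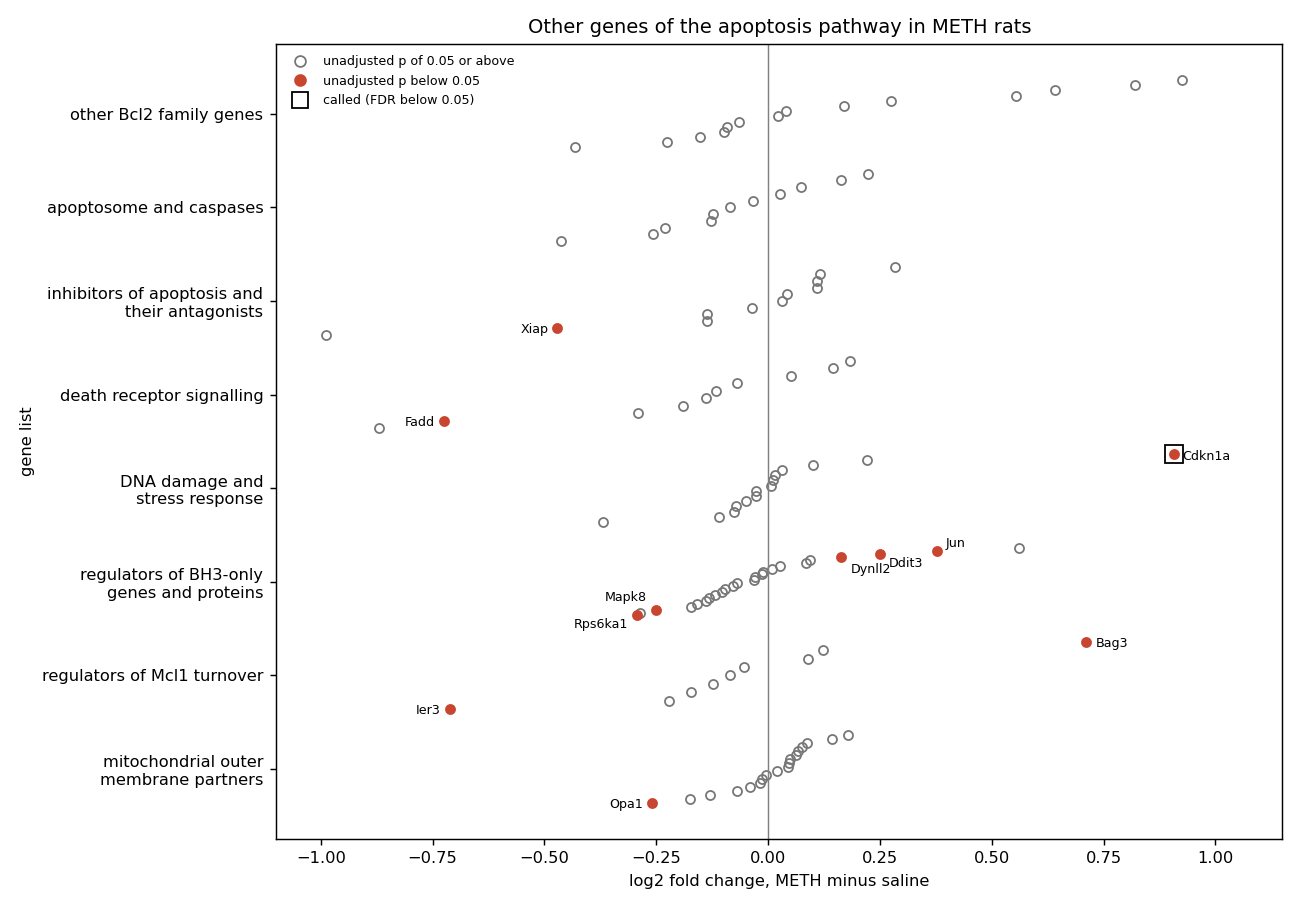
Log2 fold change, METH minus saline (horizontal axis), of the 111 tested genes of 8 apoptosis lists (vertical axis), with genes at an unadjusted p below 0.05 filled and named and the called gene boxed. Most points lie close to zero in every list, and Cdkn1a, at 0.91, is the only one called.

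Markers of other cells were summed in each rat, since family members are expressed in all of them. The 9 projection neuron markers summed to 14370 to 15160 CPM in saline rats and 15210 to 19250 CPM in METH rats, so that every METH rat lay above every saline rat, also without METH rat 3, which was the highest. Such a sum weighs the most abundant markers most. Of these markers 7 were higher, 3 of them at an unadjusted p below 0.05 in the edgeR quasi-likelihood test, and 0 were called. Of all genes tested, 0.516% were called, 6.39% had groups without overlap and 11.1% had an unadjusted p below 0.05. METH rat 3 was also the highest rat for Bcl2l1, Bax, Bak1 and Bad. The 5 general neuron markers went the other way as a sum, at 2164 to 2490 CPM in saline rats and 1786 to 2152 CPM in METH rats, again without overlap, with 3 markers lower (1 at that threshold) and 2 higher. The 5 endothelial markers were all lower in METH rats, 3 of them at that threshold, with sums of 490 to 700 CPM in saline rats and 482 to 517 CPM in METH rats. Of the 7 microglial markers, 6 were lower, 2 of them at that threshold and 1 of these called, with overlapping sums of 308 to 360 and 272 to 330 CPM. The oligodendrocyte sums (12900 to 18700 and 12200 to 18200 CPM) and the astrocyte sums (3190 to 3860 and 3170 to 4120 CPM) overlapped. The choroid plexus markers Ttr, Kl and Kcnj13 were too low to test. The other 2 were both higher in METH rats, 1 at that threshold, with low sums that did not overlap, 3.62 to 4.73 CPM in saline rats and 5.33 to 7.195 CPM in METH rats. The part of these cells in the values of the family was not tested.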

How the data were processed

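Striatal mRNA of 8 rats was captured by poly(A) and sequenced in paired ends. Per the labels, the authors used Cutadapt 1.18 for trimming, STAR 2.7.0e for alignment to rn6 and featureCounts of Subread 1.6.4 for counting, and deposited raw counts per gene symbol, 1 column per rat, without pooling. The annotation, strand setting and treatment of multi-mapping reads are not given in the sources used here, so overlapping genes (Acoxl overlaps Bcl2l11 in RefSeq GRCr8) are uncertain.

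Columns were assigned to rats by the group and number in their names. Counts were filtered with filterByExpr (minimum count 10), scaled by TMM and tested with the quasi-likelihood test of edgeR 4.0.16 in R 4.3.3, with Benjamini-Hochberg adjustment over all genes tested. Calls required both an FDR under 0.05 and a mean above 1 on the log2 CPM scale. The SE is the size of the log2 fold change divided by the square root of F, and the 95% interval uses the degrees of freedom of the fit. A prior count of 2 entered log2 CPM. The code was tested on simulated data.

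Alternatives were 2 further tests of edgeR (exact and likelihood ratio), DESeq2 1.42.0, limma-voom (limma 3.58.1), RLE, upper-quartile and total-count scaling, other filters, a robust fit, a replicate block on the rat number, and each rat left out. Total counts of 18135939 to 21211920 per rat set the counting precision, and limits from counts cover counting error only. Rats of the same group were not copies of one library (chi-square over degrees of freedom of 10.1 to 27.6).

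The members and gene lists were chosen with earlier results of these data known. Named pathway genes were those with an unadjusted p below 0.05 in a list, or the one with the smallest p. Some results of this rule are not reported here. Other genes named in the lists, and those named beside their neighbors, were chosen after their values were seen. Of 125 listed symbols, 119 were matched to the table (Septin4 through its synonym Sept4) and 8 of these were too low to test. Naip6, Xaf1, Huwe1, Fbxw7 and Dub3 were not analysed here, and Bcl2a1d is a synonym of the listed Bcl2a1.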

Additional observations from a re-analysis of the deposited data

How the results depend on the processing

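Under the 19 alternatives, 0 members of the family were called. Between 0 and 1 member had an unadjusted p below 0.05, and between 0 and 2 members had groups apart, when each rat was left out (with all rats, 0 members under the alternatives for which each was computed). Bak1 (without saline rat 2 or METH rat 1) and Bbc3 (without METH rat 4) were the members past that p, and Bcl2l2 and Bak1 (without saline rat 2) and Bbc3 (without METH rat 4) those apart. Signs were not fixed for 4 members near zero. With total-count scaling, which moved the median of all genes to -0.0411, Bcl2l1 was at -0.0258 and Mcl1 at -0.00935. With each rat left out, Bcl2l1 ranged from -0.0441 to 0.04, Mcl1 from -0.0531 to 0.0791, Bad from -0.0179 to 0.0977 and Bcl2l11 from -0.274 to 0.242. Bbc3 stayed between -0.493 and -0.254 and Bak1 between 0.167 and 0.361.

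The list genes called were 2 in place of 1 (Bag3 with Cdkn1a) with DESeq2, the likelihood ratio and exact tests, and the filter of at least 1 count. In the whole table these settings called 186, 170, 168 and 79 genes in that order, where the main test called 62. With a rat left out, 0 to 2 list genes were called (0 without saline rat 2, 2 without METH rat 2 or METH rat 4). In the whole table, 37 genes were called without saline rat 2, 68 without METH rat 2 and 56 without METH rat 4. The cause of these differences was not tested.

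With the replicate block, 0 members were called and the log2 fold changes were -0.371 for Bbc3 (FDR 0.676) and 0.269 for Bak1 (FDR 0.687). The numbers are shared by different animals. The correlation of deviations from the group means of same-numbered rats was -0.0851 on average, and 2 of 8 rats correlated best with their own number. Bcl2, Bid and Bcl2l11 had at most 96 counts in any rat, and the spread between rats of Bcl2 and Bcl2l11 was larger than their counting error in both groups.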

Other observations

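The variation of the members between rats did not follow their counts alone. Bcl2l1 and Bcl2l2, with at least 3121 counts in every rat, varied by 5.29% and 5.66% between saline rats, where counting error gives 1.69% and 1.6%. In METH rats Bcl2l2 varied by 1.85%, close to its counting error of 1.58%, while Bax varied by 13.9% against 2.87%. Bid varied by 13.9% in METH rats, close to its counting error of 13.8%. In 20 groups of 4 rats, 10 genes in each of 2 treatments, 0 held a rat farther from the others than the Dixon limit of 0.829 for 4 values. Across the 10 members, saline rat 3 was the lowest of the 8 rats for 5 genes and METH rat 3 the highest for 4.

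The genes next to the members in the RefSeq GRCr8 order, named after their values were seen, included 16 that were tested, 2 of them (12.5%, beside 11.1% of all genes tested) with an unadjusted p below 0.05 in the edgeR quasi-likelihood test. Pabpn1, a poly(A)-binding protein gene next to Bcl2l2, was at 172 ± 15.8 CPM in saline rats and 206 ± 26.5 CPM in METH rats, with a log2 fold change of 0.26 (FDR = 0.347). Gpr137, next to Bad, had a log2 fold change of 0.25 (FDR = 0.436). Sae1, next to Bbc3, had 0.046 (FDR = 0.854).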
